A study of Mus musculus with 12 samples.

Results

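Translation initiation factors, the MNK kinases and the mTOR and S6 kinase genes that act on them were examined in the RNA-seq of C2C12 cells, a mouse myoblast line that fuses into myotubes when serum is withdrawn. The genes were chosen by name alone: a protein-coding gene was a member if its symbol began with Eif and a digit, or was Mknk1, Mknk2, Rps6kb1, Rps6kb2, Pdcd4, Eef2k, Mtor, Rptor, Rictor or Deptor. The rule found 54 members among the 10289 genes that the deposited tables list. It fits 65 genes of the GENCODE M21 annotation, of which 11 are in no table.

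All cells were C2C12 lines made stable by lentivirus and puromycin selection, and each carried an expression vector for GFP, mouse METTL3 or mouse METTL14. METTL3 and METTL14 are the core of the enzyme that writes N6-methyladenosine (m6A) on RNA. RNA-seq covered 4 groups of 2 libraries each: GFP cells in growth medium with fetal bovine serum (GM, day 0), GFP cells after 4 days in differentiation medium with horse serum (D4), and METTL3-overexpressing and METTL14-overexpressing cells in GM. The time point field of the METTL14 libraries reads D4 but their titles read D0, and the titles were followed. Another 4 libraries, 2 of m6A immunoprecipitates and 2 of their inputs from GFP cells, were not analysed here.

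The 3 tables compare D4 with GM in GFP cells, METTL3 with GFP in GM, and METTL14 with GFP in GM. All 3 comparisons share the same GFP libraries in GM, so the 3 listings are not independent of each other. Each table lists only the genes that the authors' DESeq2 fit placed at a false discovery rate of 0.05 or less. "Listed" below therefore means that a gene passed that limit in either direction. The authors' fold changes and p-values were not used, so neither the direction nor the size of a difference is given. The one level used is the authors' mean normalized count, a read count scaled for library size and averaged over libraries. A gene had the same mean in every table that listed it (2390 genes compared, largest relative difference 4.77e-10), so the level belongs to pooled libraries and not to a condition. The tables do not say which libraries were averaged, and every level and ratio below carries this limit. No value per library, depth or spread between replicates is known, and no test could be run.

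Initiation begins when eIF2 brings the initiator tRNA to the small ribosomal subunit, helped by eIF3, eIF1, eIF1A and eIF5. The cap-binding complex eIF4F, made of eIF4E, eIF4A and eIF4G, then recruits the mRNA. The pathway has well-known points of control. Kinases phosphorylate eIF2 and so block its recycling by eIF2B, the 4E-BPs hold eIF4E until mTORC1 phosphorylates them, and the MNK kinases, which are activated by MAP kinases, phosphorylate eIF4E while bound to eIF4G. Growth factor and amino acid signals reach muscle protein synthesis largely through mTORC1.

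Mknk2 and Eif6 were the only members listed in all 3 tables, and the sites in the Mknk2 mRNA that carry the letters GGACT, one form of the sequence context in which m6A is found, are shown here with those of Mknk1, its paralog. A listing gives no direction or size. By real-time PCR the paper found MNK2 mRNA unchanged when METTL3 or METTL14 was overexpressed, while the MNK2 protein rose. How the listing relates to that result was not tested. These mRNAs and the motif were chosen after the listing was known. Each line gives the gene, the place of the motif in GRCm38 and the 29 bases of the mRNA around it, read from the GENCODE M21 transcript with the longest coding part, with the motif in capitals. Mknk2 lies on the minus strand of chromosome 10 and its transcript has 3439 bases. Mknk1 lies on the plus strand of chromosome 4 and its transcript has 2552 bases.
Mknk2, 5′ untranslated, chr10:80675879-80675883: ctggtggggcccGGACTgaagatggtgca
Mknk2, coding, chr10:80671961-80671965: cgcccagcacagGGACTctgacttcagcc
Mknk2, coding, chr10:80669313-80669317: ggccagtgccctGGACTtcctgcataaca
Mknk2, coding, chr10:80668076-80668080: gttccctgacaaGGACTggtcccacatct
Mknk2, 3′ untranslated, chr10:80665662-80665666: ttggccacctgaGGACTcggcccccctgc
Mknk2, 3′ untranslated, chr10:80665400-80665404: gaactgacctccGGACTcctttcccacca
Mknk1, coding, chr4:115876596-115876600: gctccagaaaggGGACTccccacgccgca
Mknk1, coding, chr4:115877965-115877969: cagcagcaccatGGACTtgactctcttcg

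Mknk2 held 6 of these motifs, spread over all parts of the mRNA, whereas the 2 of Mknk1 lay close together in its coding part. Only the sense strand was searched, since the mark is on RNA, and no other motif was searched. Per kb of mRNA, Mknk2 had 1.74 sites and Mknk1 had 0.784. Mknk2 was not the densest member. Eif6, whose 4 sites are not shown, had 2.67 per kb, the highest of the members. Eif3d (2.11), Eif3j2 (2.10) and Eif2ak2 (2.09) were among others above Mknk2. The median of the 54 members was 1.18 sites per kb, against 1.02 over 21951 annotated protein-coding genes and 1.05 over the 8806 protein-coding genes of the D4 table. At least 1 site was found in 51 members (94.4%), in 86.8% of the annotated genes and in 91.9% of those in the D4 table. A match shows only that the letters are present and does not show methylation. For Mknk2 the paper reports a clear m6A peak near the 3′ untranslated part, from the immunoprecipitate libraries not analysed here. It also found the mRNA enriched by an m6A antibody in real-time PCR. The motifs were not set against that peak.

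**Figure D1:**
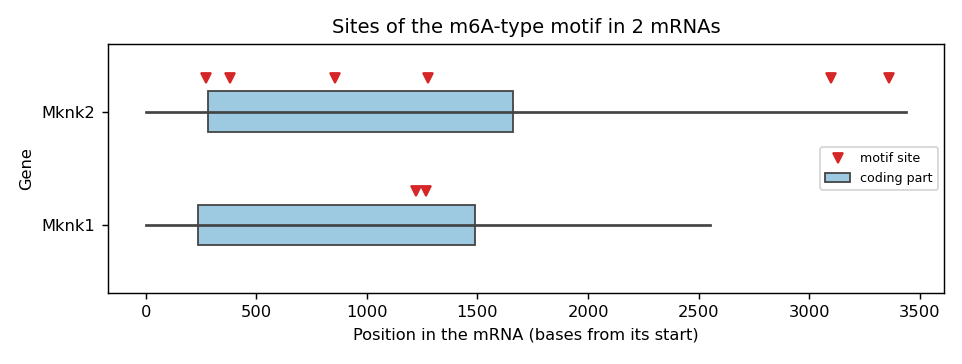
Places of the GGACT motif along the mRNAs of Mknk2 and Mknk1, with the horizontal axis in bases from the start of the transcript, the box marking the coding part and each triangle a motif. Mknk2 has 6 motifs from position 271 to 3362, and Mknk1 has 2, at 1223 and 1267.

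The first question was which members differ between myoblasts and differentiating cells. All 54 members were in the D4 table, which is 83.1% of the 65 annotated genes that fit the rule. Over all annotated protein-coding genes the share was 40.1%. That base includes genes that C2C12 cells do not express. Counted only among genes that some table lists, the shares were 100% of members and 95.2% of protein-coding genes. The eIF1 and eIF5 genes (9 of 9), among them the 2 eIF5A genes, eIF3 (14 of 14), the MNK kinases (2 of 2) and the mTOR complex genes (4 of 4) were listed whole. The others were eIF4 and its regulators (13 of 17), eIF2 (4 of 6), eIF2B (4 of 5), the eIF2 kinases (2 of 4), the S6 and eEF2 kinases (1 of 3) and Eif6.

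The 11 genes in no table were Eif2d, Eif2s3y, Eif2ak1, Eif2ak4, Eif2b2, Eif4e1b, Eif4e2, Eif4ebp3, Eif4g1, Rps6kb1 and Eef2k. Their number includes Eif4g1, the main scaffold of eIF4F, Rps6kb1, the S6 kinase best known as a target of mTORC1, and Eef2k, which phosphorylates the elongation factor eEF2. Nothing is known here of their level: a gene that was not expressed and one that was expressed but missed the limit are both absent.

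The second question was which members differ when the m6A writers are overexpressed in GM. The METTL3 table listed 8 members: Eif3l, Eif4e3, Eif4ebp1, Eif4ebp2, Eif5a, Eif5a2, Eif6 and Mknk2. This is 12.3% of the 65 annotated genes, against 7.80% of annotated protein-coding genes. Counted among genes that some table lists, the order of the shares turned, to 14.8% of members and 18.5% of protein-coding genes, so the count does not set the members apart from other genes. The METTL14 table listed 2 members, Eif6 and Mknk2, which is 3.08% of the 65 against 4.91% of annotated protein-coding genes. Among genes that some table lists the shares were 3.70% and 11.6%. All 8 members of the METTL3 table were also in the D4 table, as were the 2 of the METTL14 table, but every member was in the D4 table.

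**Figure D2:**
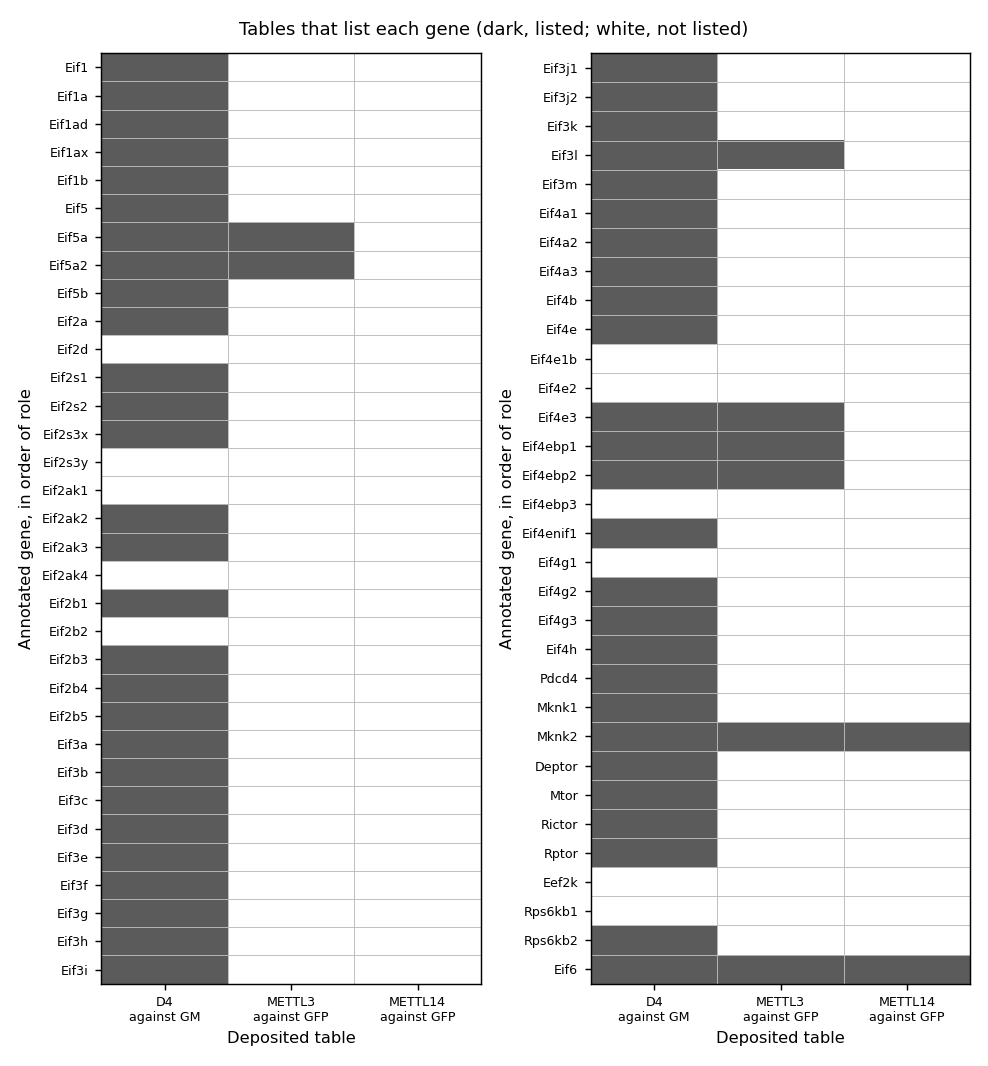
The 65 annotated genes that fit the rule, in order of role in 2 columns, against the 3 deposited tables, with a dark cell where the table lists the gene. All 54 listed genes are dark for D4 against GM, 8 for METTL3 against GFP and 2 (Mknk2 and Eif6) for METTL14 against GFP, and 11 rows are white throughout.

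By role, the METTL3 table held both eIF5A genes, both listed 4E-BPs, 1 of the cap-binding proteins (Eif4e3), 1 of 14 eIF3 genes (Eif3l), 1 of 2 MNK kinases and eIF6. It held no gene of eIF2, eIF2B, the eIF2 kinases, the mTOR complexes or the S6 kinases. These groups are small, with 4, 4, 2, 4 and 1 genes in any table. The METTL3 table held 7.80% of annotated protein-coding genes and 18.5% of those in any table. Whether the roles differ from these shares was not tested. eIF5A helps ribosomes through difficult stretches and to terminate, and eIF6 keeps the large ribosomal subunit from joining the small one too early. Mtor, Rptor, Rictor and Deptor were in the D4 table alone.

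As a group the members were abundant. Their median mean normalized count was 1764 (quartiles 792 and 3417), against 557 over the protein-coding genes of the D4 table. Of the 54, 43 were above that latter median and 17 were in the highest decile of that table. The counts ran from 125.7 for Eif3j2 to 20915 for Eif4g2, and 39 members had 1000 or more. The members of the METTL3 table had a median of 2178 (lowest 227, highest 10169.8), where its protein-coding genes had 634.

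**Figure D3:**
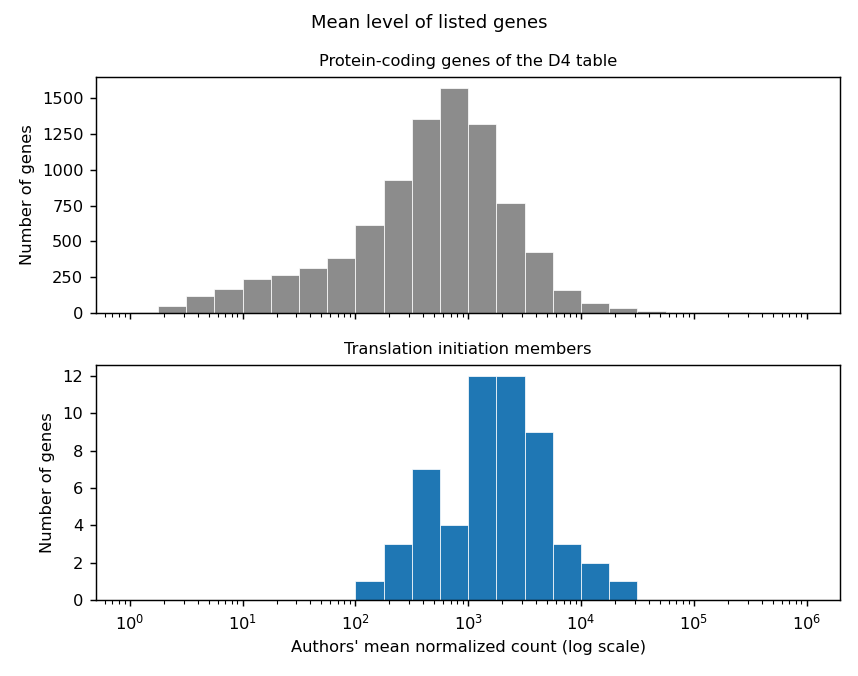
Number of genes (vertical axis) by the authors' mean normalized count (horizontal log axis) for the 8806 protein-coding genes of the D4 table, above, and the 54 members, below. All members lie at 100 or more and their median is 1764, against 557 for the table.

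Levels of different genes were compared per kb of the longest transcript, because a longer mRNA gives more reads. On this scale the median of the members was 535 and that of the protein-coding genes of the D4 table was 160. The scale has no error here, since single libraries are not given, so an order of neighbouring genes cannot be set against their spread.

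**Figure D4:**
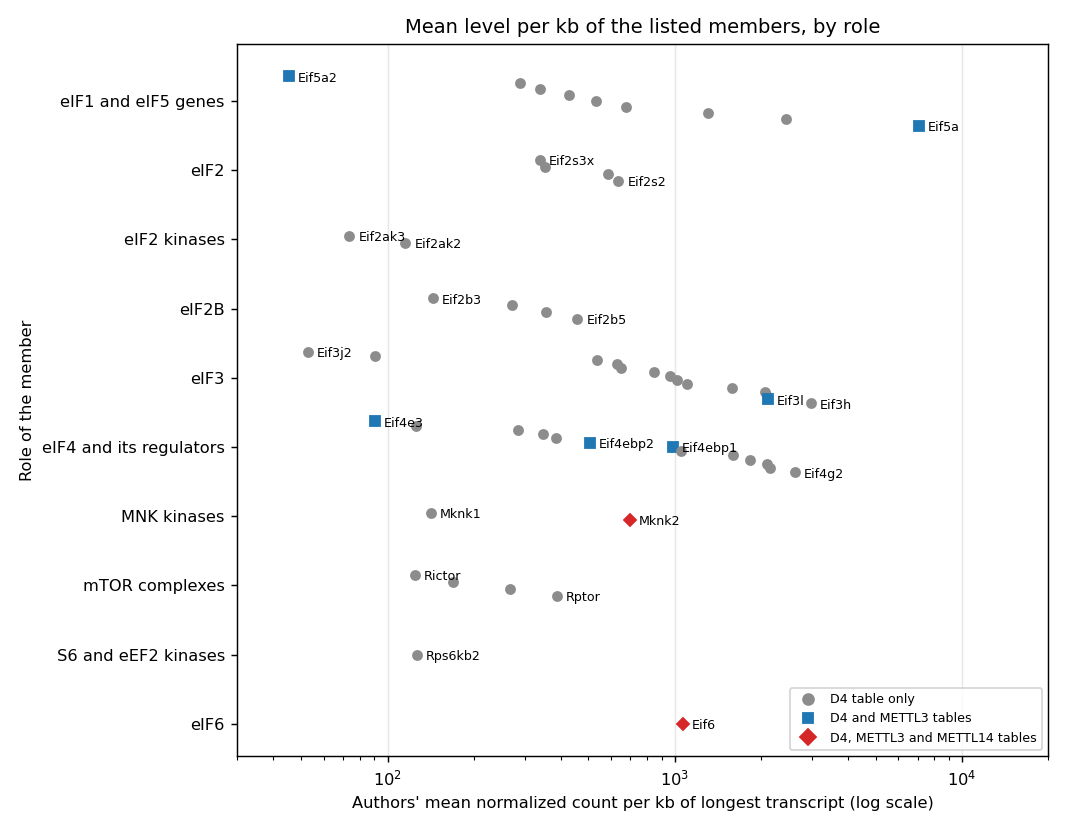
Authors' mean normalized count per kb of the longest transcript (horizontal log axis) for the 54 members in rows by role, with circles for genes in the D4 table alone, squares for those also in the METTL3 table and diamonds for those in all 3 tables. The 8 genes of the METTL3 table range from 45.2 (Eif5a2) to 7077 (Eif5a), the lowest and highest members, and the 2 diamonds are Mknk2 at 696 and Eif6 at 1065.

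Mknk2, the gene of MNK2 (ENSMUSG00000020190), lies on the minus strand at chr10:80665327-80678112. Its mean normalized count was 2393, above 88.4% of the protein-coding genes in the D4 table, and Mknk1 (chr4:115839198-115879250, plus strand) had 365, above 38.3%. Per kb Mknk2 had 696 and Mknk1 had 142, a ratio of 4.91. The ratio was 7.59 with the union of exons as the length and 5.93 with the coding length, so Mknk2 was the higher of the pair under each. Mknk1 was in the D4 table alone.

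Eif6 (ENSMUSG00000027613, chr2:155819832-155826925, minus strand) had a mean normalized count of 1598, and 1065 per kb.

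The eIF5A genes stood at both ends of the levels. Eif5a had a count of 10169.8 and 7077 per kb of the longest transcript, the highest of all members, whereas its paralog Eif5a2 had a count of 227 and 45.2 per kb, the lowest on this scale. With the coding length Eif5a2 had 495 per kb and was no longer the lowest, since Eif2ak3 had 99.3. The ratio of this pair was 156 with the longest transcript, 94.6 with the union of exons and 44.4 with the coding length. Both genes were in the METTL3 table in spite of this difference in level. The other eIF1 and eIF5 genes lay between them, from 288 to 2448 per kb. Eif1, which keeps the scanning ribosome from starting at the wrong codon, had 2448 per kb and its paralog Eif1b had 340.3. Eif5, which makes eIF2 hydrolyse its GTP, had 1304 per kb, and Eif5b, which joins the ribosomal subunits, had 532. The eIF1A genes Eif1a and Eif1ax had 674 and 426 per kb, and their order turned with the coding length, where Eif1ax was 2.02 times Eif1a. Eif1ad had 288 per kb.

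The 3 listed subunits of eIF2 had 636 per kb (Eif2s2), 587 (Eif2s1) and 339 (Eif2s3x). With the coding length they had 2627, 2114 and 874. With the union of exons Eif2s1 (404) was above Eif2s2 (386), and Eif2s3x was lowest with each length. Eif2a, a separate initiator tRNA-binding protein that is no subunit of eIF2, had 353. The eIF2B genes, whose product reloads eIF2 with GTP, had 458 (Eif2b5, the catalytic subunit), 356 (Eif2b1), 271 (Eif2b4) and 143 (Eif2b3) per kb. With the coding length Eif2b1 (784) was above Eif2b5 (544), and Eif2b3 (397) was above Eif2b4 (323). The listed eIF2 kinases were lower than these eIF2B genes with the longest transcript. Eif2ak2, the double-stranded RNA sensor PKR, had 115, and Eif2ak3, the endoplasmic reticulum stress sensor PERK, had 73.5 per kb. With the union of exons, however, Eif2ak2 (97.3) was above Eif2b3 (82.6).

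The 14 eIF3 genes had a median of 987 per kb. Eif3h was first (2970.2) and Eif3j2 last (52.9), with Eif3j1 (90.6) next to last, and these places held under all 3 definitions of length. Eif3l (2112), Eif3b (2093) and Eif3a (2060.4) came next with the longest transcript, and the others lay between 537 (Eif3k) and 1586 (Eif3c). These places changed with the length. With the union of exons Eif3c passed Eif3l and Eif3a, and with the coding length Eif3e passed Eif3b. Eif3l, at chr15:79075179-79094405, was the only eIF3 gene in the METTL3 table. Its count was 4953.

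**Figure D5:**
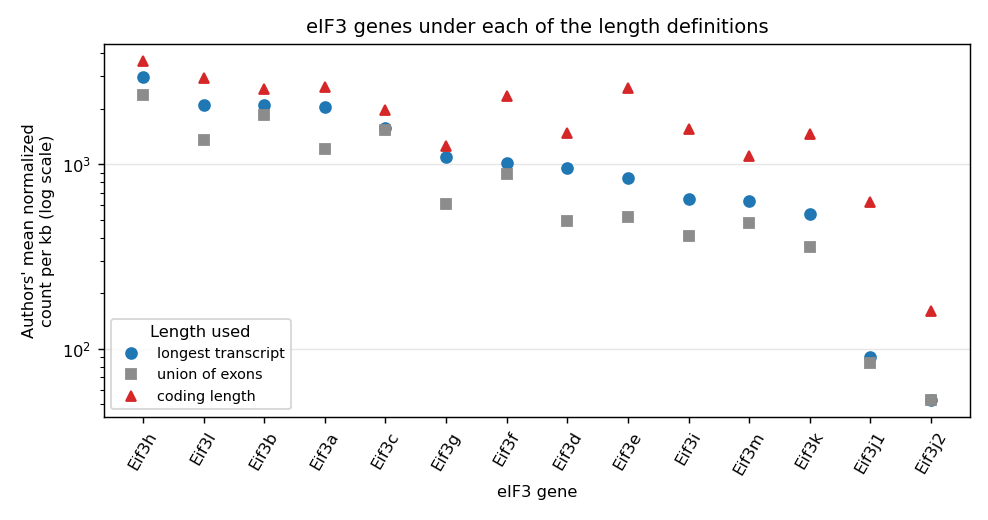
Authors' mean normalized count per kb (vertical log axis) of the 14 eIF3 genes, with a circle for the longest transcript, a square for the union of exons and a triangle for the coding length. Eif3h is highest and Eif3j1 and Eif3j2 lowest with each length, while the genes between them change places.

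The level of some members is uncertain because their sequence is shared. Of the 50-base windows of their longest transcript, 28 members shared none with the transcripts of another gene, and 10 shared more than 10%. Exons outside that transcript were not checked. Eif3j2 shared 91.8% and Eif3j1 39.8%, mostly with each other, so reads of either gene may be split or lost. Eif2s3x shared 36.2%, Eif4a1 33.3%, Eif1 31.6% and Eif3h 26.2%. Among the members of the METTL3 table, Eif4e3 shared 12.3%, Eif5a 7.13%, Eif4ebp1 3.17% and Eif6 1.65%. Its other members, Eif3l, Eif4ebp2, Eif5a2 and Mknk2, shared none, and neither did Mknk1.

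Of the eIF4 genes, Eif4g2, whose product resembles eIF4G but does not bind eIF4E, was the most abundant (count 20915, 2616 per kb). The helicase genes Eif4a1 and Eif4a2 had 2086 and 1826 per kb, a ratio of 1.14. The helicase helpers Eif4b and Eif4h had 2146 and 1601, and Eif4a3, which belongs to the exon junction complex, had 1050.3. The cap-binding Eif4e had 286 and its relative Eif4e3 had 90.2, and only Eif4e3 of these was in the METTL3 table. Eif4g3, the other listed scaffold, had 346.

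Of the inhibitors of this step, Eif4ebp1 had 983 per kb (count 1963) and Eif4ebp2 had 507 (count 2935), and both were in the METTL3 table. Their order is not settled: the ratio of Eif4ebp2 to Eif4ebp1 was 0.516 with the longest transcript, 0.568 with the union of exons and 1.46 with the coding length. Pdcd4, which blocks eIF4A, had 126 per kb, and Eif4enif1, which carries eIF4E into the nucleus, had 385.

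In the mTOR complexes, Rptor, the scaffold of mTORC1, had 387 per kb, Deptor, an inhibitor of both complexes, had 267, Mtor itself had 169, and Rictor, the scaffold of mTORC2, had 124. The order of these genes changed with the length. Deptor had 257 and Rptor 190 with the union of exons, and 1859 and 638 with the coding length. With the coding length Rictor had 226 and Mtor 189. The ratio of Rptor to Rictor was 3.11, 2.77 and 2.82 with the longest transcript, the union of exons and the coding length. Rps6kb2, the one listed S6 kinase, had 127 per kb.

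mRNAs of the translation machinery that answer to mTORC1 often start with a C and a run of pyrimidines. At the RefSeq start exactly (GRCm38.p6), 2 of the 42 members with a RefSeq promoter entry began with a C and at least 4 further pyrimidines (4.76%), against 2.71% of 16522 genes. They were Eif3f (chr7:108934405-108934434, plus strand) and Eif2s3x (chrX:94212632-94212661, minus strand), shown with 10 bases before the start and 20 from it on, and the run in capitals.
Eif3f: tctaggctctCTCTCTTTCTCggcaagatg
Eif2s3x: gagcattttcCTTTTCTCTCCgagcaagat

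The count depends on which start is taken. Within 10 bases of the RefSeq start such a run began in 14 of 42 members (33.3%), near the 35.2% of all genes. At the start of any GENCODE transcript, an alternative added after the data were seen, it began in 12 of 54 members (22.2%), against 8.51% of 21951 genes. Members have more annotated transcripts (median 5, against 3), and per transcript the share was 4.39% of 342 against 2.14% of 101652. None of these shares was tested, and neither Mknk2 nor Eif6 had a run exactly at an annotated start.

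Other pathway genes came from lists of elongation and termination, poly(A) binding, start site and reinitiation, mTORC1 control, eIF2 phosphatase, MNK-activating kinases, and S6. In the annotation 49 of these genes were found. The D4 table held 35 of them (71.4%), against the 40.1% of all protein-coding genes given above. The latter base includes genes that C2C12 cells do not express. Among genes that some table lists, the share of protein-coding genes was 95.2%, and that of the list genes was not computed, so 71.4% does not set them apart. These were 8 of 9 elongation and termination genes, 5 of 5 genes of the poly(A) binding list and 13 of 18 mTORC1 control genes. To them are added 3 of 6 genes of the start site and reinitiation list, 2 of 3 eIF2 phosphatase genes, Rps6, and 3 of 7 kinases upstream of MNK (42.9%). The METTL3 table held Eef2, Abce1, Sesn1, Ddit4 and Mapk3, and the METTL14 table held Abce1, which recycles ribosomes, and Ppp1r15a, which directs the phosphatase to eIF2. These are 10.2% and 4.08% of the 49 genes, near the 7.80% and 4.91% of all annotated protein-coding genes. The mean normalized count of Mapk3, a kinase upstream of MNK, was 1601.

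Cell type markers were counted by listing alone, which has no direction and so cannot check the cell type labels. Myoblast markers (Myod1, Myf5, Des, Cdh15, Itga7) were listed for D4 in 4 of 5 cases and myotube markers (Myog, Myh3, Ckm, Acta1, Tnnt3) in 5 of 5. Whether a marker is confined to the state it stands for was not checked. The METTL3 table held 5 of 5 genes of the myoblast list and 1 of 5 of the myotube list, and the METTL14 table held 4 and 2. The shares of all annotated protein-coding genes were 40.1%, 7.80% and 4.91% for D4, METTL3 and METTL14. Genes of both marker lists were thus in the same tables as the members, and their part in the members' listing was not tested. Of markers of other cells, Ly6a was listed in all 3 tables and Pdgfra in the D4 table alone, and Ptprc, Pecam1 and Adipoq were in no table. Ly6a, a mesenchymal marker with a mean normalized count of 750.1, was thus in both overexpression tables with Mknk2 and Eif6, and its part in their listing was not tested. Mettl3 was listed in the METTL3 table and Mettl14 in the METTL14 table, with mean normalized counts of 5827 and 6250.5, which do not check single libraries.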

How the data were processed

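The RNA-seq reads were, as the paper's methods state, aligned by the authors with hisat2 to GRCm38, counted with featureCounts on the Ensembl 102 annotation and compared with DESeq2. Program versions are not given in the sources used here. The deposited level is a signal, the mean normalized count, which the authors obtained by dividing gene counts by size factors and averaging over libraries. Values of single libraries are not in the tables, so depth and replicate spread are unknown, and nothing says whether the replicates were separate cultures. The other columns hold the authors' log2 fold changes, standard errors, statistics and p-values, and 2 tables hold an unheaded value beside 1 gene. None of these was used.

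From the tables, members were found by name and counted, with Python 3.11.15, pandas 2.3.3 and NumPy 2.4.6. Genes were named by role, each role with its highest and lowest level per kb. Positions, lengths and mRNA sequences came from GENCODE M21 on the same build (10282 of 10289 gene IDs matched), which is another release than the one the authors counted on. Length was the longest transcript, with the union of exons and the longest coding part as alternatives. Promoters were RefSeq's on GRCm38.p6 (250 bases before and 50 after the start), found for 42 of 54 members. Shared sequence was counted in 50-base windows of the longest transcript of each member. The counting code was checked on simulated sequences. Members and lists were chosen with earlier results of these data known. The paralog pairs, the GGACT motif with the mRNAs shown, and the shared windows were chosen after the members' values were seen. The motif was first counted on the longest transcript and then on the one with the longest coding part. Pyrimidine starts of ribosomal protein genes were also counted and then left out as outside the members. Alternatives were other limits on the count, other bases for the shares, other lengths and other starts. A few results are not reported here.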

Additional observations from a re-analysis of the deposited data

Results flagged for a closer look

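Signal also appeared in genes whose name the rule fits but which are not protein-coding, and which were therefore outside the members. The D4 table listed the processed pseudogenes Eif3s6-ps2, with a mean normalized count of 36.6, and Eif4a-ps4, with 17.6. They were flagged because they hold counts outside the genes compared. Eif4a1, whose mean normalized count was 6606, shares 33.3% of its 50-base windows with other genes, and most of these with Eif4a-ps4. Whether the reads came from the pseudogenes or from their parent genes was not tested.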

How the results depend on the processing

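Of 22 alternatives, 10 left a value the same within the limits set and 12 moved it. With genes listed in any table as the base, the share of members listed for D4 was 100% and the shares of all protein-coding genes were 95.2%, 18.5% and 11.6% for D4, METTL3 and METTL14. With names starting with Eif alone, 1 member was left in the METTL14 table. With all gene types the median mean normalized count was 1591. The median per kb was 413 with the union of exons and 1475 with the coding length, and 16 and 11 of 28 subunits in eIF2, eIF2B, eIF3 and eIF4F (counting Eif4a3, Eif4g2 and Eif4e3 among the last) kept their rank. Pyrimidine runs began within 10 bases of the start in 14 members and at any GENCODE start in 12. With no replicate spread to compare with, any shift of a median counted as moved. The planned coding length of 3 bases per residue was replaced by the longest annotated coding part, since no protein table was used here. No paired analysis was possible because the tables give no value per library, and for the same reason leaving out a library and another normalization were not run.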
